A study of Mus musculus with 8 samples.

Results

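Inflammasome and pyroptosis genes were examined in microglia, the tissue macrophages of brain and spinal cord. The 10 genes were chosen by name (Nlrp3, Nlrp1b, Nlrc4, Pycard, Casp1, Casp4, Casp8, Gsdmd, Il1b and Il18), and all 10 were found among the 54532 genes of the count table and passed the filter on low counts. Spinal cord microglia of 8 females were sequenced as RNA: 4 mice were wild type (WT, numbers 503, 504, 506 and 527) and 4 were of the knock-in line Cd11b-P2X4mCherryIN (KI, mice 513, 526, 528 and 549), 1 library per mouse. The name of the allele joins CD11b, a surface protein of myeloid cells, the ATP-gated channel P2X4 and the red fluorescent protein mCherry. The labels give no age, strain, batch or treatment for either group and do not say which promoter drives the allele, and no label names a disease in these 8 mice. The cells had been sorted as living, CD11b-positive, CD45-low and Ly6C-negative, per the labels' protocols.

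An inflammasome is a protein platform that a cytosolic sensor builds when it meets microbial products, cell damage or ion loss. Through the adaptor ASC, the product of Pycard, the sensor gathers and activates caspase-1, which cleaves the precursors of interleukin 1 beta and interleukin 18 and opens gasdermin D, the pore through which the cytokines leave and the cell can die by pyroptosis. In macrophages the NLRP3 inflammasome is classically driven by extracellular ATP acting on P2X7, a close relative of P2X4, after a priming signal has raised Nlrp3 and Il1b transcription. These steps run largely on proteins, so transcript levels show which parts were present as RNA and not whether any inflammasome was active.

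KI was compared with WT to see whether the transcript levels of these parts differed between the genotypes. Transcripts of the effector arm were abundant in both groups, whereas those of Il1b were scarce and those of Nlrc4 close to absent. None of the 10 genes passed the test between the groups: adjusted over the 17291 genes tested, edgeR's quasi-likelihood test called 0 of 10 members, and 0% of all genes. At an unadjusted p under 0.05 were 2 members, Casp1 and Pycard, both higher in KI, where 3.23% of all genes were higher and 7.79% were in either direction. Neither remained under 0.05 without WT 506 or without KI 526, which left 0 members there. DESeq2 called 0 members as well, against 1.19% of the genes it adjusted, and put 3 members at an unadjusted p under 0.05. The groups overlapped in every member, while they did not overlap in 4.94% of all genes tested (KI above WT in 2.34%, below in 2.6%) and in 6.05% of genes with a mean CPM of 5 or more. The log2 fold changes of the members, KI over WT, ran from −0.23 to 0.25, with 7 of 10 above 0 and a median of 0.13. Of all genes tested 50.1% were above 0, and their median was 0.00.

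RefSeq start-site windows (build GRCm38.p6) of 5 members are shown because the results turn on their different levels: the cytokine pair Il1b and Il18, the neighbouring caspase genes Casp1 and Casp4, and Nlrp3. Each runs from 250 bases before the RefSeq start site to 50 from it on, 5′ to 3′ on the strand of the gene. Capitals mark matches on either strand to TATAAA (the core promoter box), GAGGAA (PU.1, a factor that defines macrophages), TTGCNNAA (C/EBP) or TGANTCA (AP-1). They also mark an NF-kB pattern (a run of 3 G, any 5 bases and a run of 2 C) and an interferon response pattern (1 G and 3 A, any 2 bases, and again 1 G and 3 A). The windows are chr2:129371090-129371389 (minus strand) for Il1b, chr9:50554450-50554749 (plus) for Il18, chr9:5298267-5298566 (plus) for Casp1, chr9:5308599-5308898 (plus) for Casp4 and chr11:59541319-59541618 (plus) for Nlrp3.
Il1b: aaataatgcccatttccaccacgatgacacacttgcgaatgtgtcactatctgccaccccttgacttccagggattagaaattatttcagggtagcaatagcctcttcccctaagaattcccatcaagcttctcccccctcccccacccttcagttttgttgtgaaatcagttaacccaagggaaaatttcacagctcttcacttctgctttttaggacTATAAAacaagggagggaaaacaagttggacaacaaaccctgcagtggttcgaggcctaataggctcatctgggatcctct
Il18: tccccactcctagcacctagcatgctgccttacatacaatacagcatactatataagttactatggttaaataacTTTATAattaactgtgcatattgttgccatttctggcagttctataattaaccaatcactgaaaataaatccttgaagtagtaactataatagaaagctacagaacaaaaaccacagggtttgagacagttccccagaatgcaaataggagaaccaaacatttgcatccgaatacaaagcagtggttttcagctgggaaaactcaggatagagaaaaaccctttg
Casp1: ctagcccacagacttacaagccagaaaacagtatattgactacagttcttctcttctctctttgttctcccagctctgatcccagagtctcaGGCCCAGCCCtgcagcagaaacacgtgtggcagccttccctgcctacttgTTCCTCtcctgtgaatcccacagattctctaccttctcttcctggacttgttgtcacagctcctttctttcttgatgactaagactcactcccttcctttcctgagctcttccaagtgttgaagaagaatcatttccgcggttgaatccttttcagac
Casp4: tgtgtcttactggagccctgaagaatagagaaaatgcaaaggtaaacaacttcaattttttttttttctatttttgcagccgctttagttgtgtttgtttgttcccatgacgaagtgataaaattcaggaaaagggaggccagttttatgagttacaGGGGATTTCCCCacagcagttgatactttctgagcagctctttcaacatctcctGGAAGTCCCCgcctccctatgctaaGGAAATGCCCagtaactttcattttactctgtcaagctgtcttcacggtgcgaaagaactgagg
Nlrp3: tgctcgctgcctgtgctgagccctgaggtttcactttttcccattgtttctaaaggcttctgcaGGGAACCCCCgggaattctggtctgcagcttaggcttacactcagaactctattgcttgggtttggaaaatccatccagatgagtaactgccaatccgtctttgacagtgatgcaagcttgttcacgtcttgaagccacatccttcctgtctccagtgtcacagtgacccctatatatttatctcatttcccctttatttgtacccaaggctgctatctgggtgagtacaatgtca

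The Il1b window held 1 match, a TATAAA from 31 to 26 bases before the start site, and 13.62% of all 32851 windows of this length held that motif somewhere. In the Il18 window the single match was a TATA box on the opposite strand, 175 to 170 bases before the start. Casp4 held 3 separate stretches with the NF-kB letters, the longest made of overlapping matches on both strands, and 8.43% of all windows held 3 or more. Casp1 held 1 NF-kB stretch and 1 PU.1 match, and Nlrp3 held 1 NF-kB stretch. These letters are common, since 50.79% of all windows had an NF-kB match, 28.28% a PU.1 match and 10.8% a C/EBP match. AP-1 (7.81% of windows) and the interferon response motif (3.44%) matched in none of the 9 member windows searched, which says only that the letters are not in them. A window was found for 9 of the 10 members, with none for Gsdmd. Nlrp3, Nlrp1b and Casp4 each had 2 windows, of which only the 1 nearest the 5′ end of the GENCODE gene model was searched. The RefSeq start sites of Casp8 and Il18 lie 7128 and 127 bases from the 5′ end of the GENCODE gene model, so these windows need not hold its main start. In the mm10 gene models the other members lie at 59541568 to 59566956 (Nlrp3, plus strand) and 71153102 to 71230733 (Nlrp1b, minus) on chromosome 11, at 74425438 to 74459142 on chromosome 17 (Nlrc4, minus) and at 127989708 to 127993867 on chromosome 7 (Pycard, minus). Casp8 spans 58795374 to 58847503 on chromosome 1 (plus), Gsdmd 75862327 to 75867408 on chromosome 15 (plus), Il1b 129364570 to 129371139 on chromosome 2 (minus) and Il18 50554827 to 50581840 on chromosome 9 (plus).

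**Figure D1:**
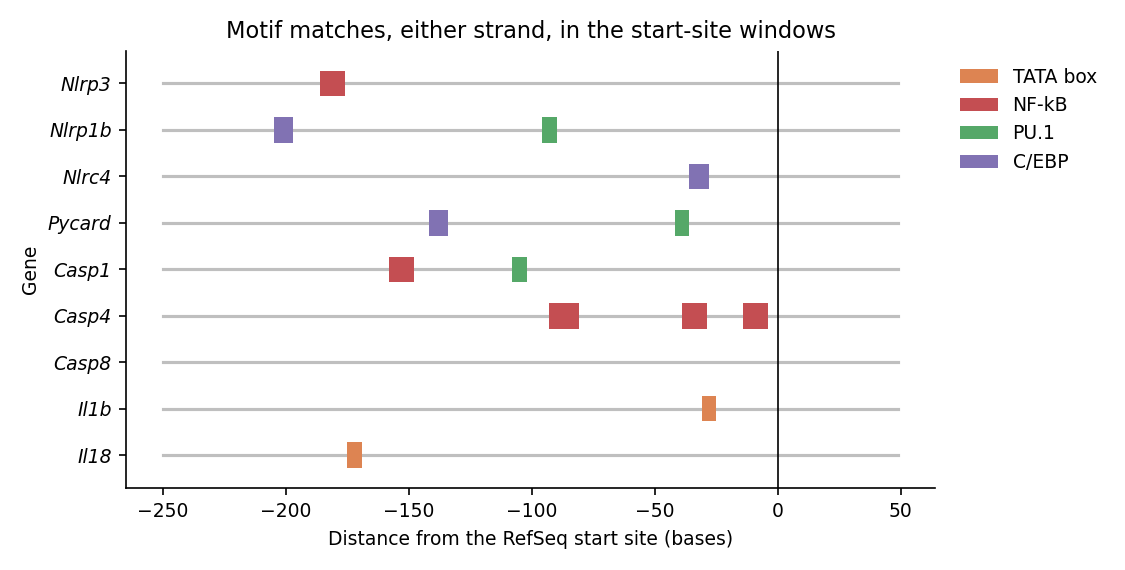
Motif matches in the RefSeq start-site windows of 9 members, plotted by distance from the start site in bases (grey line, the window; coloured blocks, matches on either strand). Casp4 has 3 separate NF-kB stretches before its start, Il1b has a TATA box close to it, and Casp8 has no match.

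The sorted cells carried the transcripts that define microglia. Summed over 8 microglial markers, the level was 28090 to 32375 CPM (read counts scaled to library size with TMM factors) in WT and 26456 to 30113 in KI, and all 8 genes had reads in every library. Libraries held 45167483 to 54049801 reads on genes, so that a gene with no read could still be present at up to 0.0549 to 0.0670 CPM (3 reads). Neutrophil transcripts, a known rich source of Il1b, differed between single libraries. The summed level of 9 markers was 0.568 to 18.5 CPM in WT and 0.315 to 57.8 in KI (2 of 9 with reads in every library). It was highest in KI 528, with 17.4 to 18.5 in KI 513 and WT 504. The highest marker, Ngp, stood at 27.3, 9.38 and 11.9 CPM in KI 528, KI 513 and WT 504, and S100a8 at 9.99, 3.75 and 3.13. Ly6g, by contrast, averaged 0.0399 (WT) and 0.00555 CPM (KI), below the level of 3 reads. Monocyte markers summed to 5.15 to 6.01 CPM in WT and 3.37 to 11.1 in KI (5 of 7 with reads in every library), border-associated macrophage markers to 5.197 to 6.77 and 4.85 to 17.0 (5 of 6), both highest in KI 528. Erythroid markers reached larger sums, 152 to 496 CPM in WT and 93.4 to 292 in KI. So did oligodendrocyte markers, at 108 to 212 and 95.3 to 223 CPM. Lymphocyte markers summed to 81.3 to 108 and 97.2 to 116 CPM (1 of 7 with reads in every library), nearly all of it Cd79b. Cd79b alone averaged 97.7 (WT) and 106 CPM (KI). The other markers of that list were far lower, with Cd79a at 0.505 and 0.121 CPM and Cd3e at 0.0245 and 0.0158. In bulk samples fewer cells of a type and less RNA per cell cannot be told apart.

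**Figure D2:**
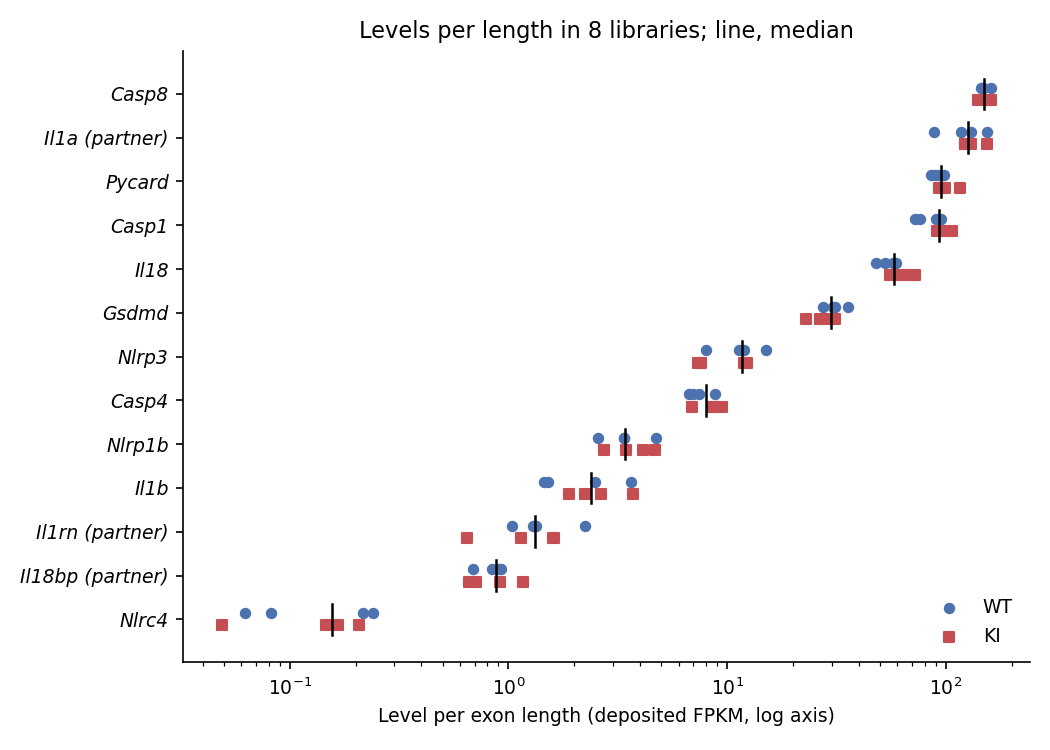
Levels per exon length (deposited FPKM, log axis) of the 10 members and of 3 partners in the 8 libraries (circles, WT; squares, KI; black line, median). The members span from Casp8, at a median of 149.7 FPKM, to Nlrc4, at 0.156, and points of both groups lie together in each row.

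Ordered by level per exon length in the deposited FPKM, Casp8 came first with a median of 149.7 over the 8 libraries (139 to 161), above 97.9% of the genes tested. Pycard (94.7) and Casp1 (92.9) followed and did not separate: Pycard was the higher in 6 of 8 libraries and their ranges overlapped. Il18 had a median of 58.1 FPKM and Gsdmd of 29.7, and each lay below the gene before it in all 8 libraries. Next were Nlrp3 (11.7 FPKM) and Casp4 (8.02), whose ranges overlapped, then Nlrp1b (3.42) and Il1b (2.37), which overlapped too. Nlrc4, at a median of 0.156 FPKM, was 15.2-fold below Il1b and above 8.53% of the genes tested. Per length of the principal GENCODE transcript, a choice made after seeing the data, the order was the same except that Casp4 (19.3 CPM per kilobase) stood above Nlrp3 (11.2), because the summed exons of Casp4 cover 3710 bases against 1435 in that transcript.

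Of the 3 members that are sensors, the proteins that start assembly, Nlrp3 had the highest level per exon length, and Aim2, the sensor of cytosolic DNA, lay above it with a median of 25.8 FPKM. Nlrp3 was read at 45.6, 31.1, 57.6 and 44.2 CPM in WT mice 503, 504, 506 and 527 and at 48.0, 27.8, 30.3 and 46.4 in KI mice 513, 526, 528 and 549. Each group thus held libraries near 30 and near 46, and the spread within groups (SD 10.9 in WT, 10.6 in KI) exceeded the difference of the means, 44.6 and 38.1 (n = 4 each). On the log2 scale KI differed from WT by −0.23 (SE 0.225, 95% interval −0.73 to 0.27; edgeR adjusted p = 0.878). Leaving out 1 library at a time gave −0.37 to −0.08, the latter without WT 506. The Nlrp3 levels were set beside the immediate early genes, a fast stress response that tissue dissociation is known to induce. The immediate early list of 15 genes also holds the heat shock genes Hspa1a and Hspa1b. On a log2 scale centred over the 8 libraries, the mean of the list was lowest in WT 504 (−1.06) and KI 526 (−0.88), where Nlrp3 stood at −0.36 and −0.53. In KI 528 they parted, with the immediate early mean at 0.45 and Nlrp3 at −0.40, and their part in the level of Nlrp3 was not tested.

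Nlrp1b, a sensor that in some mouse strains answers anthrax lethal toxin, was read at 20.4, 15.8, 20.5 and 28.9 CPM in the WT mice in the same order and at 16.8, 24.6, 29.6 and 21.1 in the KI mice. The highest library of either group was near 29 and the lowest near 16, so the groups covered the same range (log2 fold change 0.11, 95% interval −0.38 to 0.59, edgeR adjusted p = 0.956). Without KI 528 the log2 fold change was −0.04 and without WT 504 −0.01. Nlrp1b has the related copies Nlrp1a and a pseudogene beside it, so reads may be split between them and its level is uncertain. Nlrp1a itself averaged 18.2 and 18.1 CPM in WT and KI.

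Nlrc4, which responds to bacterial flagellin and secretion system proteins that NAIP receptors bind, had 12 to 55 reads per library. Its level was 0.366, 0.988, 0.282 and 1.09 CPM in WT and 0.670, 0.735, 0.977 and 0.223 in KI, without any separation of the groups (log2 fold change −0.07, 95% interval −1.55 to 1.42, edgeR adjusted p = 0.993). The interval of Nlrc4 reaches past 2-fold in both directions, and the SD of its log2 CPM within groups was 0.888. The receptor partner Naip2 was far more abundant, with a mean of 155 CPM in WT and 157 in KI mice. Per exon length its transcripts exceeded those of Nlrc4 between 126-fold and 622-fold over the libraries. Naip5 (40.0 and 43.9 CPM) and Naip6 (29.0 and 32.8) were also read in every library, although reads of the NAIP copies may be split between them. Naip1 was as scarce as Nlrc4, with a mean of 0.581 CPM in WT and 0.683 in KI. Aim2 stood at 85.5 ± 6.94 (WT) and 80.3 ± 9.93 CPM (KI; SD, n = 4 each). Its log2 fold change was −0.09.

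**Figure D3:**
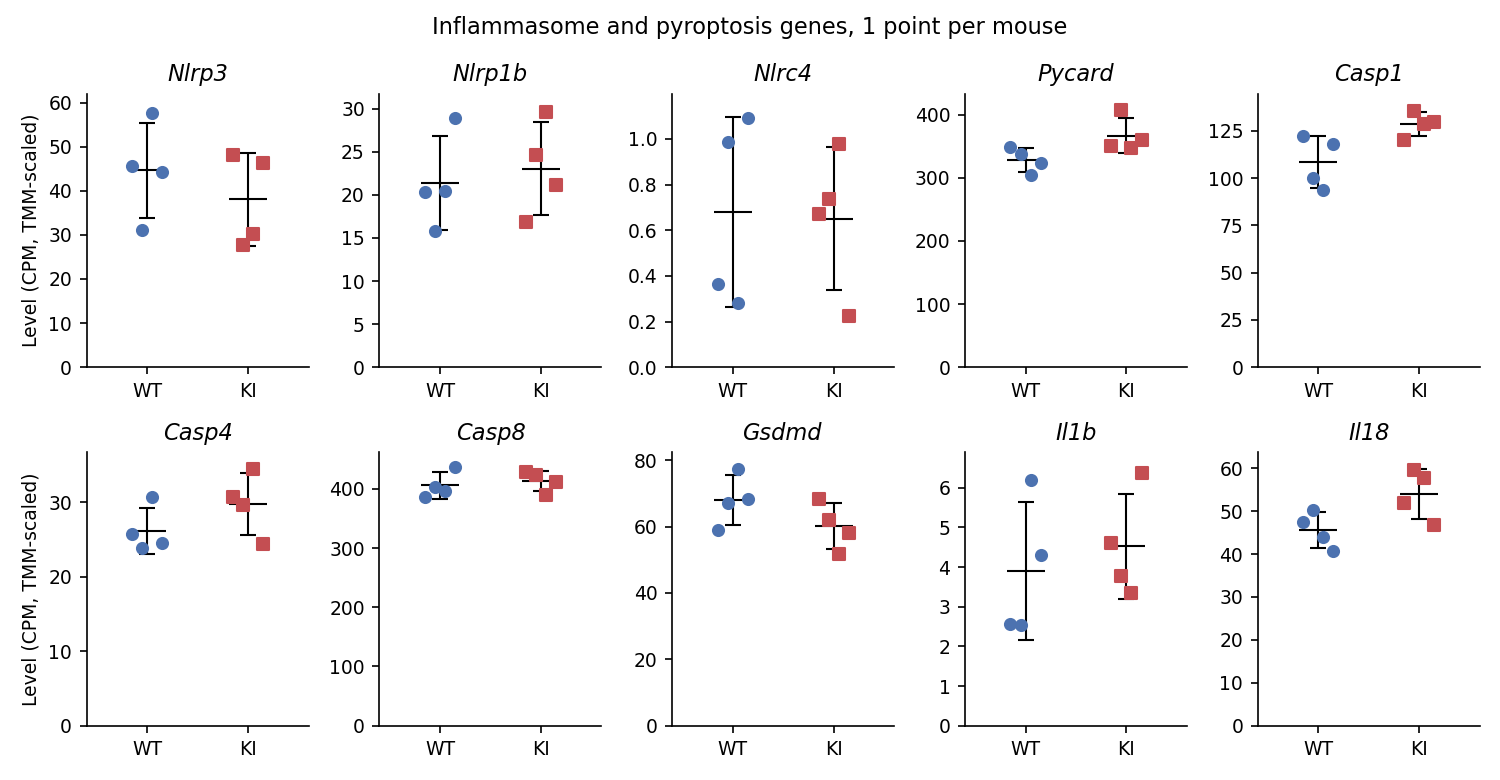
Level of each of the 10 members in CPM (TMM-scaled, linear axes from 0), 1 point per mouse (circles, WT; squares, KI; bar and whiskers, mean ± SD, n = 4). In every panel the points of the groups overlap. The mean is higher in KI in 7 of the 10 panels and lower in Nlrp3, Nlrc4 and Gsdmd.

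The adaptor gene Pycard was among the steadiest members. It was read at 349, 337, 305 and 323 CPM in WT mice 503, 504, 506 and 527 and at 350, 408, 348 and 360 in KI mice 513, 526, 528 and 549. All KI libraries lay above 3 of the WT libraries, but KI 528, at 348, was level with WT 503, and KI 526 stood highest. The means were 328 ± 18.7 and 367 ± 27.95 CPM (SD, n = 4 each), a log2 fold change of 0.16 (SE 0.0699, 95% interval 0.00 to 0.31) with an unadjusted p of 0.0469 and an edgeR adjusted p of 0.635. Without KI 526 it was 0.10.

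Casp1, the protease at the centre of the pathway, had the largest fold change among the members in the test. Its level was 122, 100, 93.4 and 118 CPM in the WT mice and 120, 136, 129 and 130 in the KI mice. The KI libraries were close together and high, whereas the WT libraries fell into 2 near 120 and 2 near or below 100, and WT 503 lay above KI 513. The means were 108 ± 13.8 and 129 ± 6.48 CPM (SD, n = 4 each). KI exceeded WT by a log2 fold change of 0.25 (SE 0.096, 95% interval 0.03 to 0.46; unadjusted p = 0.0285), and this did not pass (edgeR adjusted p = 0.598). Leaving out 1 library at a time gave 0.18 to 0.31, higher in KI in 8 of 8 fits. Casp1 lies on chromosome 9 (mm10, 5298517 to 5307265, plus strand), upstream of Casp4 (5308828 to 5336783, plus strand).

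Casp4 encodes the mouse caspase-11, which binds bacterial lipopolysaccharide inside the cell and cleaves gasdermin D. It was read at 25.6, 23.8, 30.7 and 24.5 CPM in WT and, among KI, 30.7, 29.7, 34.4 and 24.4. The lowest KI library, mouse 549, was within the WT range, as was KI 526, and the log2 fold change of 0.19 (95% interval −0.12 to 0.49) did not pass (edgeR adjusted p = 0.811). Per summed exon length, Casp1 transcripts exceeded those of its neighbour 7.56-fold to 13.2-fold over the 8 libraries. Per length of the principal transcripts the excess was 2.92-fold to 5.10-fold, so the size of this gap depends on the gene model, and its direction does not.

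Casp8, an initiator of apoptosis that can also cleave interleukin 1 beta and gasdermin D, had the smallest spread. Its level was 386, 403, 396 and 437 CPM in WT and 428, 423, 389 and 411 in KI. The groups interleaved, the SD of log2 CPM within groups was 0.0701 against a median of 0.206 over genes averaging 5 CPM or more, and the log2 fold change was 0.03 (95% interval −0.11 to 0.16, edgeR adjusted p = 0.961). Of the partners of caspase-8 in cell death, Cflar, which restrains it, averaged 208 and 209 CPM in WT and KI, Fadd, its adaptor, 30.3 and 24.5, and Ripk3 of necroptosis 9.45 and 9.38. In that group of 6 genes the test called 0, and 0 were at an unadjusted p under 0.05.

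Gsdmd, the pore-forming substrate of caspase-1 and caspase-11, leaned the other way from the caspases. It was read at 58.9, 67.2, 77.3 and 68.3 CPM in WT mice 503, 504, 506 and 527 and at 68.3, 62.1, 51.9 and 58.2 in KI mice 513, 526, 528 and 549. WT 506 was the highest and KI 528 the lowest, with the other libraries between 58.2 and 68.3 in both groups. The log2 fold change of −0.18 (95% interval −0.43 to 0.08) did not pass (edgeR adjusted p = 0.779), and without KI 528 it was −0.11. Gsdme, a related pore cut by caspase-3, averaged 86.2 and 91.4 CPM, and Ninj1, which ruptures the membrane of dying cells, 61.4 and 62.3.

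**Figure D4:**
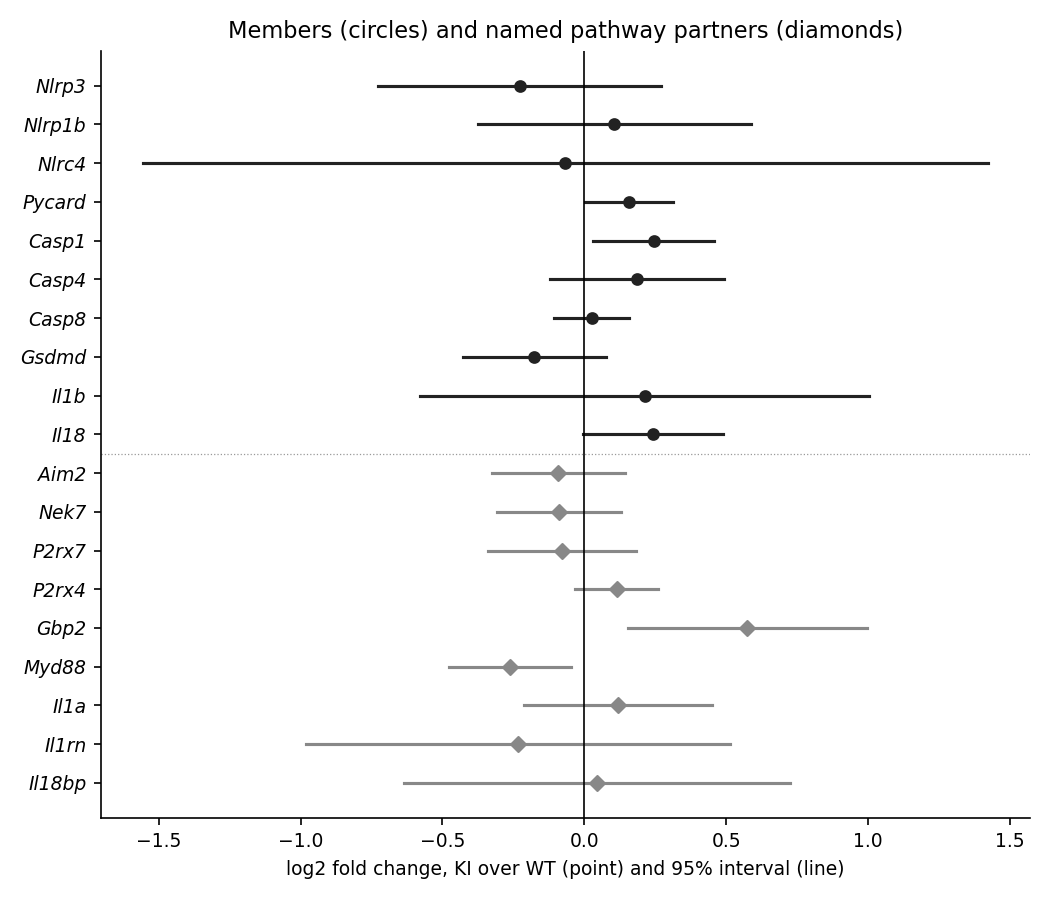
Log2 fold change (KI over WT) of the 10 members (circles) and 9 named pathway partners (diamonds), with 95% intervals from edgeR's quasi-likelihood fit. The intervals of Pycard, Casp1, Gbp2 and Myd88 do not reach 0, none of these passed after adjustment, and the interval of Nlrc4 is the widest.

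Of the 2 cytokine genes, Il1b was scarce. It had 118 to 343 reads per library, that is 2.56, 2.53, 6.21 and 4.30 CPM in WT and 4.60, 3.77, 3.35 and 6.36 in KI. The highest library of each group, WT 506 and KI 549, was near 6 CPM, and the rest were between 2.5 and 4.6. KI differed from WT by a log2 fold change of 0.21 (SE 0.356, 95% interval −0.58 to 1.004, edgeR adjusted p = 0.947), and it was 0.00 without KI 549 and 0.53 without WT 506. KI 528, with the most neutrophil transcripts, held 3.35 CPM of Il1b, WT 504 2.53 CPM and KI 513 4.60 CPM, and the part of neutrophils in the level of Il1b was not tested. A short antisense gene, Il1bos, shares 25 exon bases with Il1b, and without strand their reads there cannot be told apart.

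Il18 was read far more often. Its level was 47.5, 50.2, 44.1 and 40.6 CPM in WT and 51.9, 59.5, 57.7 and 46.7 in KI. Of the KI libraries, 3 lay above every WT library, and KI 549, at 46.7, lay below WT 503 and WT 504. The means were 45.6 ± 4.17 and 54.0 ± 5.84 CPM (SD, n = 4 each), the log2 fold change 0.24 (SE 0.11, 95% interval 0.00 to 0.49) and the edgeR adjusted p 0.652, with an unadjusted p of 0.0523. DESeq2 gave an unadjusted p of 0.0320 and an adjusted p of 0.372. Per exon length, Il18 exceeded Il1b in every library, 13.1-fold to 36.7-fold, and 11.2-fold to 31.3-fold per length of the principal transcripts.

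Il1a, the sister cytokine that is active without caspase-1, was the leading interleukin 1 transcript. It stood at 218 ± 47.6 (WT) and 237 ± 28.8 CPM (KI, SD, n = 4 each, log2 fold change 0.12, edgeR adjusted p = 0.915). Per exon length it exceeded Il1b 42.0-fold to 77.5-fold, and 29.8-fold to 55.1-fold per length of the principal transcripts. An antisense gene, Gm14023, overlaps 222 exon bases of Il1a, which leaves part of its count uncertain. The antagonists were low: Il1rn, which blocks the interleukin 1 receptor, averaged 7.89 ± 2.86 and 6.70 ± 2.47 CPM, and Il18bp, which binds interleukin 18, 2.38 ± 0.297 and 2.45 ± 0.624. The ratio of Il1b to Il1rn per exon length was 1.09, 1.32, 2.54 and 1.04 in the WT mice and 3.83, 1.32, 1.09 and 3.04 in the KI mice. The ratio was above 2.5 in WT 506, KI 513 and KI 549 and lower in the other libraries of both groups. Per length of the principal transcripts it ran from 0.651 to 2.41, so which of the pair was the more abundant depends on the gene model. Its log2 mean was 0.48 ± 0.595 for WT and 1.02 ± 0.889 for KI mice (SD, n = 4 each, 2-sided exact permutation p = 0.314, adjusted over the 2 ratios 0.429). For Il18 to Il18bp the ratio was 41.5 to 81.2 over the libraries, with log2 means of 5.82 ± 0.314 and 6.04 ± 0.455 (exact permutation p = 0.429, adjusted 0.429). Per length of the principal transcripts this ratio was 26.2 to 51.3. Numa1, on the opposite strand, shares 80 exon bases with Il18bp and had 15472 reads against 971 of Il18bp, which leaves part of the Il18bp count uncertain. With 4 libraries against 4 the smallest p of this test is 0.0286.

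**Figure D5:**
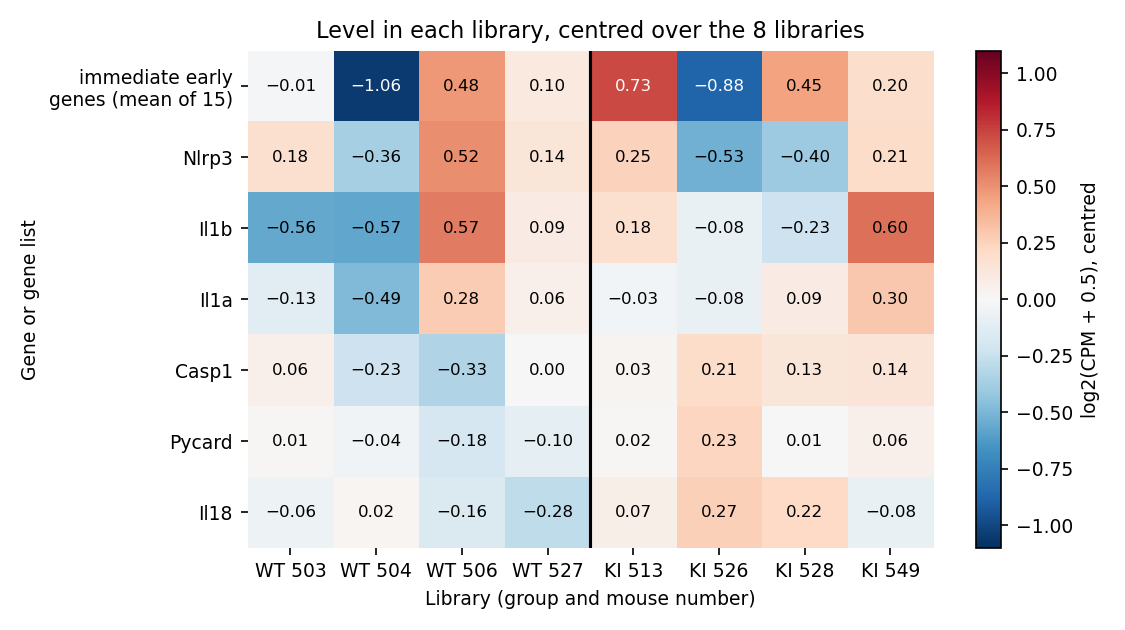
Level of 6 genes and the mean of the immediate early list (15 genes, heat shock genes Hspa1a and Hspa1b included) in each library, as log2(CPM + 0.5) centred over the 8 libraries. Red is above the mean, blue is below, and the vertical line parts WT from KI. WT 504 and KI 526 are lowest in the immediate early list, and WT 506 and KI 549 highest in Il1b. Casp1 and Pycard are above 0 in all 4 KI libraries and in WT 503, and Casp1 is just above 0 in WT 527 as well.

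Of the channels and regulators that act on NLRP3, P2rx7, P2rx4 and Nek7 were described for their role, and none of the 3 passed the test. P2rx7 stood at 291 ± 47.4 (WT) and 276 ± 25.0 CPM (KI), and P2rx4, the gene named in the allele, 793 ± 43.5 and 859 ± 62.7 (SD, n = 4 each). Their log2 fold changes were −0.08 and 0.11. Nek7, a kinase that NLRP3 needs, averaged 443 ± 22.7 and 417 ± 59.0 CPM (log2 fold change −0.09), with KI 549 at 330 below the 417 to 470 of every other library. The counts are summed over whole genes and were not used to check the genotype labels.

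In a wider list of 56 genes of the pathway, 49 passed the filter, and edgeR's quasi-likelihood test called 0. The unadjusted p was under 0.05 for 1 higher and 1 lower gene, against 3.23% and 4.56% of all genes. The higher one was Gbp2, a guanylate-binding protein that interferon induces and that helps to expose bacteria to caspase-11, at 20.7 ± 4.01 (WT) and 30.9 ± 6.64 CPM (KI; log2 fold change 0.57, edgeR adjusted p = 0.554). KI 526 and KI 528 held 37.5 and 35.3 CPM of it, while KI 549, at 23.4, lay below WT 503, at 25.9. The lower one was Myd88, the adaptor of Toll-like and interleukin 1 receptors that serves priming. It was read at 70.1, 83.3, 75.0 and 77.6 CPM in WT and at 67.9, 55.5, 62.7 and 69.3 in KI (log2 fold change −0.26, edgeR adjusted p = 0.592). Its groups did not overlap, which held for 1 of the 49 genes. Among all genes tested the share was 4.94%, and 6.05% among those averaging 5 CPM or more. Myd88 shares 290 exon bases with Acaa1a on the opposite strand.

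By role, 7 of the 9 priming genes had a 95% interval within 1.5-fold either way, with a median log2 fold change of −0.10, and Tlr4, the lipopolysaccharide receptor, averaged 281 and 298 CPM. Of the 10 other sensors 6 passed the filter, with a median of 0.08, and Mefv, Nlrp6, Nlrp10 and Nlrp12 were below it. The 14 tested triggers and regulators had a median of 0.07, and the 5 tested caspases, pores and rupture genes of 0.02. The interleukin 1 family with its antagonists and receptors was the least even group, with a median of −0.14 over 9 tested genes, and an interval within 1.5-fold in 1 of them. Several of its genes were low, with Il33, Il1r2 and Sigirr averaging 1.94, 1.52 and 2.13 CPM over all libraries, whereas Il1a averaged 227 and Il1rap 31.0. The SD of log2 CPM within groups had a median of 0.853 over its tested genes.

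The 95% interval lay within 1.5-fold either way for 6 of the 10 members, Pycard, Casp1, Casp4, Casp8, Gsdmd and Il18, and within 2-fold for 8, compared with 38.6% and 58.8% of all genes tested (65.4% within 1.5-fold among genes averaging 5 CPM or more). For Nlrp3 and Nlrp1b the interval reached past 1.5-fold, and for Il1b and Nlrc4 to or past 2-fold. The SD of log2 CPM within groups had a median of 0.175 over the members. It was 0.328 over all genes tested and 0.206 over those averaging 5 CPM or more.

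Genes with the pattern most like each cytokine over the 8 libraries were named as a description, out of 10171 genes averaging 5 CPM or more. For Il1b these were Clasrp (Pearson r = 0.977), Cln3 (0.954) and Zfp799 (0.941), and for Il18 Zfp991 (0.977), Ptpra (0.968) and Gm5086 (0.955). These are the highest of many values over 8 points that share their library and its scaling, and they are given with no test.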

How the data were processed

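RNA-seq counts of sorted spinal cord microglia were made by the authors with featureCounts 2.0.3 over exons summed by gene, paired-end, primary alignments, no strand option, per the file headers. Besides these counts, FPKM values were deposited by the authors; from the values, they are counts relative to library total and to exon length less a median of 188.8 bases. STAR 2.7.5c and build mm10 are named in the submitters' processing notes, and summed exon lengths in bases come per the file headers. The table's 8 further columns match no label and were not used. Symbols came from GENCODE M21 (54495 of 54532 identifiers, 98.33% with the same span).

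The test was edgeR 4.0.16 under R 4.3.3 (TMM, filterByExpr with minimum count 10 and total 15, robust quasi-likelihood test, group as the only term, Benjamini-Hochberg over 17291 genes, threshold 0.05), tested on simulated data. DESeq2 1.42.0 and limma 3.58.1 served as alternatives. Levels are CPM ± SD, or deposited FPKM between genes. The members and lists were chosen with earlier results of these data known. Named genes were the members, 7 partners by role, wider-list genes with unadjusted p under 0.05 and the 3 most alike genes for Il1b and Il18. Each library is 1 mouse, no pair of libraries matched within sampling noise (chi-square per degree of freedom 25.4 to 57.9), and intervals are 95%. Intervals of fold changes come from the edgeR fit and include the spread between mice, whereas the floor of 3 reads covers counting error only. Naip, Nlrp1a, Cflar, Fadd, Ripk3, Gsdme, Ninj1 and Tlr4 values were added after being seen.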

Additional observations from a re-analysis of the deposited data

How the results depend on the processing

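The count of 0 called members and of 0 called genes of the wider list was found in all 16 alternatives: RLE size factors, library totals only, no filter, DESeq2, edgeR's likelihood ratio test, limma-voom, FPKM with a pseudocount of 1 or 0.1, and each of the 8 libraries left out. The smallest adjusted p of a member under any of them was 0.328, for Casp1 by DESeq2. Of 304 log2 fold changes of 19 named genes, 293 kept their direction and 11 did not, all with 1 library left out and adjusted p from 0.963 to 0.998, and the cause was not tested. Members that turned were Nlrp1b (−0.04 to 0.29 with 1 library left out, −0.013 without WT 504 and −0.0364 without KI 528) and Nlrc4 (−0.33 to 0.26, with 0.17 without WT 504, 0.26 without WT 527 and 0.22 without KI 549). Partners that turned were Nek7 (−0.14 to 0.0089, the highest without KI 549), P2rx7 (−0.18 to 0.00264, without WT 504), Il1a (−0.00428 to 0.25, without WT 504), Il1rn (−0.40 to 0.0454, without WT 527) and Il18bp (−0.13 to 0.15, with −0.03 without WT 504 and −0.13 without KI 549). The Il1b to Il1rn difference ranged from 0.23 to 0.83 on the log2 scale and that of Il18 to Il18bp from 0.11 to 0.44 with 1 library left out, where the smallest possible p is 0.0286. No paired analysis was possible because the mouse numbers of the groups differ. Of the members, Nlrc4 (12 to 55 reads per library) and Il1b (118 to 343) rest on the fewest reads.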
